A study of Mus musculus with 6 samples.

Results

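Galectins, S100 proteins, annexins and their cytoskeletal partners make up a set of 10 genes described here: the galectin genes Lgals1 and Lgals3, the S100 genes S100a4, S100a6, S100a10 and S100a11, the annexin genes Anxa1 and Anxa2, the intermediate filament gene Vim and Ahnak, which encodes a giant scaffold protein. They were chosen by name as cytoskeleton and membrane genes typical of effector and innate lymphocytes. All 10 were found among the 22609 genes of the authors' deposited table. The set and the lists used below were chosen with earlier results of these data known, so counts over them are descriptive only. RNA was sequenced from early T cell progenitors (ETPs), the most immature thymocytes, sorted from fetal thymus of C57BL/6 mice. The double-knockout (dKO) group has the genotype E2Afl/flHEBfl/flIL7RCre, in which loxP-flanked alleles of E2A (gene Tcf3) and HEB (gene Tcf12) are removed by a Cre recombinase tied to Il7r. The control group is wild type, and each group has 3 libraries. Cells of both groups were sorted as negative for lineage markers, CD4, CD8 and CD25 and positive for CD44 and c-Kit. Only the dKO gate also required YFP, so gate and genotype cannot be told apart. The gestational age, the number of animals per library and whether controls carried any floxed allele are not given in the labels, so p-values rest on the variation among these libraries, which may be technical.

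Galectins are lectins that bind beta-galactoside sugars on glycoproteins and can crosslink surface receptors. S100 proteins are small EF-hand calcium-binding proteins that act as dimers on target proteins, and annexins bind acidic membrane phospholipids in the presence of calcium. S100a10 pairs with Anxa2, and S100a11 with Anxa1, in complexes at the membrane that take part in vesicle fusion and membrane repair, and Ahnak is a scaffold bound by the S100a10 and Anxa2 complex. Vimentin is the intermediate filament of mesenchymal and many blood cells. In mature lymphocytes several of these genes are known as markers of effector, memory and tissue-resident states. E2A and HEB belong to the E proteins, helix-loop-helix factors needed for early lymphocyte development.

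Of the 10 genes, 9 were higher in dKO ETPs and S100a11 did not pass the threshold, an adjusted p under 0.05 in the authors' deposited table (Benjamini-Hochberg adjustment of the authors' DESeq test over 16241 genes). Over all tested genes 15.1% were called higher, and 29.0% were called in either direction. Among the 5231 tested genes with an overall mean of at least 1000, the range in which most of the 10 genes lie, 25.1% were called higher and 18.8% lower. A rise of at least 2-fold was called for 7 of the 10 genes, and for 6.86% of all tested genes. The median log2 ratio of the 10 genes, dKO over control, was 1.499, beside -0.01 over all tested genes. Summed over the set, the group means in the authors' deposited table came to 89415 normalised counts in dKO and 28987 in control. The set took 0.382% of all normalised counts in dKO and 0.131% in control.

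Values are the authors' group means of normalised counts, with 1 mean per group and no value per library. The table's low means are sums of whole reads, and the value of 1 read in each library gave size factors of 1.16, 1.08 and 1.04 for the dKO libraries and 1.02, 0.952 and 0.823 for the control libraries. Depth was then about 24.3 to 27.0 M reads per dKO library and 18.2 to 22.6 M per control library. Libraries are named below by these size factors, which the labels do not tie to replicate numbers. Both deleted genes were lower in dKO in the authors' deposited table, Tcf3 24.6-fold with means of 364 in dKO and 8931 in control, and Tcf12 6.84-fold with means of 562 in dKO and 3845 in control.

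**Figure D1:**
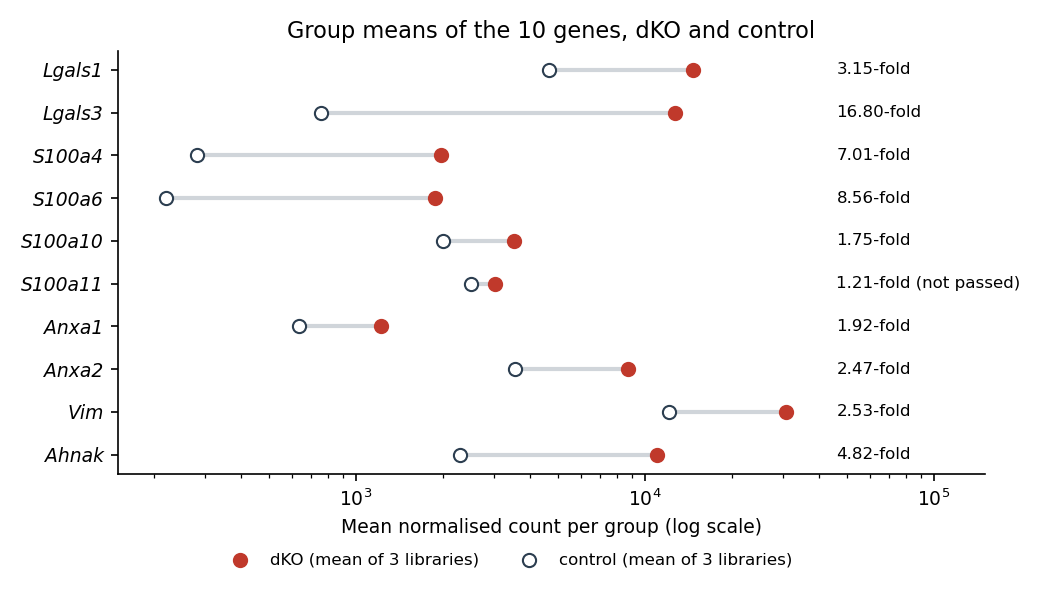
Mean normalised count of each of the 10 genes in dKO (filled points) and control (open points) on a log axis, with the ratio of the means at the right. Each point is 1 deposited mean of 3 libraries, so no error bar can be drawn. The dKO mean lies to the right of the control mean for every gene, with the widest gap for Lgals3 (12739 in dKO and 758 in control) and the narrowest for S100a11 (3030 in dKO and 2506 in control).

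Among the galectins, Lgals3 had the largest ratio of the set. Lgals3 encodes galectin-3, the chimera-type galectin that multimerises on glycoproteins and is also known from macrophages and activated lymphocytes. In the authors' deposited table Lgals3 had a mean of 12739 in dKO and 758 in control, 16.8-fold higher in dKO (authors' adjusted p = 1.11e-193). This was the fourth smallest p-value of the whole table and the 10th largest ratio among the 5715 genes with a mean of at least 1000 in either group. Lgals1 encodes galectin-1, a dimeric galectin secreted by lymphoid and stromal cells. Lgals1 had a mean of 14640 in dKO and 4640 in control, 3.15-fold higher in dKO, in the authors' deposited table (authors' adjusted p = 4.37e-20).

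S100a4 and S100a6 followed Lgals3 in the size of the ratio. S100a4, also called metastasin or fibroblast-specific protein, binds non-muscle myosin, and S100a6, calcyclin, binds the ubiquitin ligase adaptor Cacybp. S100a6 had a mean of 1883 in dKO and 220 in control, 8.56-fold higher in dKO, in the authors' deposited table (authors' adjusted p = 3.03e-13). S100a4 had a mean of 1972 in dKO and 281 in control, 7.01-fold higher in dKO, in the authors' deposited table (authors' adjusted p = 3.7e-15). S100a10, the p11 light chain of annexin A2, had means of 3509 in dKO and 2007 in control, 1.75-fold higher in dKO, in the authors' deposited table (authors' adjusted p = 1.54e-09). S100a11, the partner of annexin A1, had means of 3030 in dKO and 2506 in control, a ratio of 1.21, in the authors' deposited table, short of the threshold (authors' unadjusted p = 0.0575, adjusted p = 0.154). The reference annotation holds a pseudogene, S100a11-ps, and reads of S100a11 may have been shared with it. A predicted gene, Gm42674, shares exon sequence with S100a4 on the same strand in the reference annotation and has no row in the table.

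Both annexin genes rose, with smaller ratios than S100a4 and S100a6 (differences between genes were not tested). Anxa2 encodes the membrane-bridging annexin that is best known as the partner of S100a10, and Anxa1 encodes a phospholipid-binding protein with anti-inflammatory actions. Anxa2 had a mean of 8739 in dKO and 3542 in control, 2.47-fold higher in dKO, in the authors' deposited table (authors' adjusted p = 1.59e-29). Anxa1 had means of 1218 in dKO and 635 in control, 1.92-fold higher in dKO, in the authors' deposited table (authors' adjusted p = 2.2e-07). Within the S100a10 and Anxa2 pair both genes rose, whereas of the S100a11 and Anxa1 pair Anxa1 rose and S100a11 did not pass. The difference between the 2 ratios of a pair was not tested.

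Both cytoskeletal members rose. Vim had the highest mean of the set in both groups, 30698 in dKO and 12117 in control, 2.53-fold higher in dKO, in the authors' deposited table (authors' adjusted p = 1.61e-43). Ahnak had means of 10988 in dKO and 2281 in control, 4.82-fold higher in dKO, in the authors' deposited table (authors' adjusted p = 1.05e-41). Ahnak's longest annotated coding transcript has 18100 bases, against 498 for that of S100a4, so read counts alone cannot be compared between these genes.

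Per kb of the longest coding transcript in GENCODE M21, Lgals1 had the highest mean normalised count in both groups, 18299 in dKO and 5800 in control, and Vim came next with 13998 in dKO and 5525 in control. Lgals3 came after Vim in dKO with 8978 per kb, and in control it stood at 535 per kb, just below S100a4 at 565. Ahnak was the lowest per kb in both groups, with 607 in dKO and 126 in control. Anxa1, with 727 per kb in dKO and 379 in control, stood just above Ahnak in dKO. Without values per library, neighbours in these orders could not be set against their spread.

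**Figure D2:**
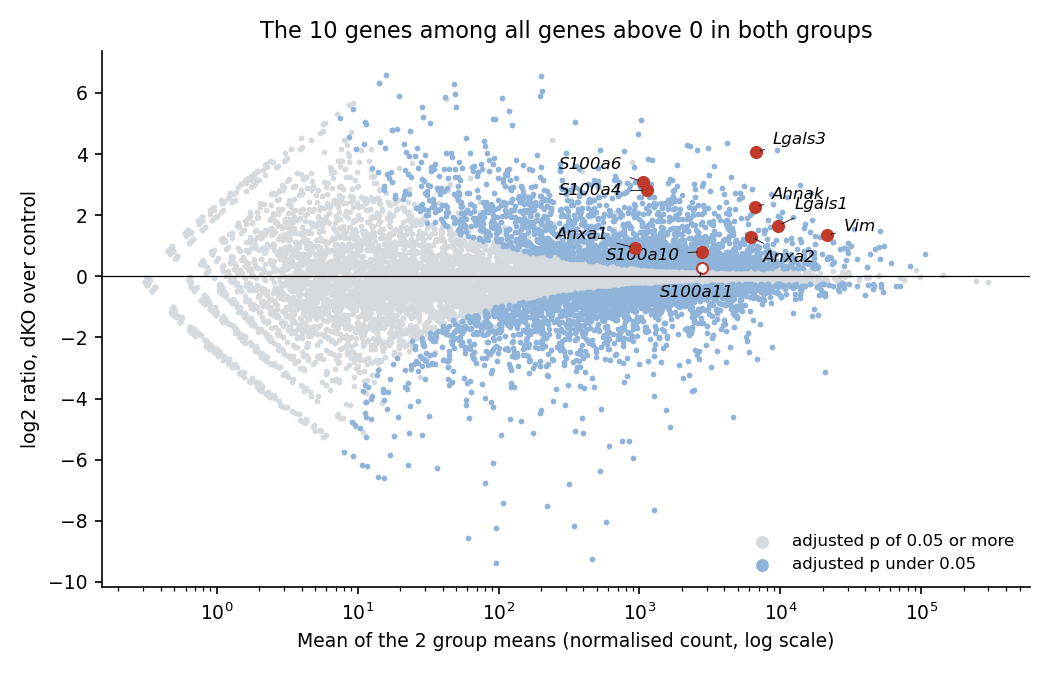
log2 ratio of the group means, dKO over control (vertical axis), against the mean of both groups on a log axis, for each gene above 0 in both groups. Blue points passed the authors' adjusted p of 0.05, grey points did not, and the 10 genes are drawn in red with S100a11 open. All 10 genes lie above 0, with Lgals3 highest at 4.07 and S100a11 lowest at 0.27 on the log2 scale.

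How far single libraries carry these means can be stated within limits. In a group of 3, no library can lie above 3 times its group's mean, because reads are never negative. For Lgals3, S100a6, S100a4, Ahnak and Lgals1 the dKO mean was above 3 times the control mean. In each of these 5 genes at least 1 dKO library therefore lay above every control library. Of the 10302 tested genes with an overall mean of at least 100 and a control mean above 0, 4.55% met this condition.

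For the lower control means, the whole reads that can give the deposited value are few. The control mean of S100a6 had 2 solutions in whole reads, with libraries either at 160, 277 and 222 or at 405, 174 and 80.2 normalised counts (size factors 1.02, 0.952 and 0.823). The highest of these, 405, is below the dKO mean of 1883 in the authors' deposited table. The control mean of S100a4 had 3 solutions, in which the highest library stood between 333 and 694, against a dKO mean of 1972 in the authors' deposited table. The control mean of Lgals3 had 9 solutions and allowed a control library of up to 2119 normalised counts, below its dKO mean. The control mean of Anxa1 had 6 solutions and allowed a control library of up to 1375, above its dKO mean. Leaving out 1 control library in any of these solutions left Lgals3 between 11.5-fold and 163-fold, S100a6 between 6.50-fold and 14.8-fold, S100a4 between 4.96-fold and 26.4-fold and Anxa1 between 1.37-fold and 4.60-fold higher in dKO. The dKO means of the 10 genes were too high for such solutions to be narrowed down. Overlap of single dKO and control libraries could therefore not be settled for any of the 10 genes.

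Promoter sequences are shown for the 3 genes with the largest ratios and for S100a11, the member that did not pass, because E proteins bind the E-box motif CANNTG. The windows are the 250 bases upstream of the RefSeq gene start (build GRCm38.p6), 5′ to 3′ on the strand of the gene, in lower case with each CANNTG in capitals.
Lgals3, chr14:47373610-47373859, plus strand: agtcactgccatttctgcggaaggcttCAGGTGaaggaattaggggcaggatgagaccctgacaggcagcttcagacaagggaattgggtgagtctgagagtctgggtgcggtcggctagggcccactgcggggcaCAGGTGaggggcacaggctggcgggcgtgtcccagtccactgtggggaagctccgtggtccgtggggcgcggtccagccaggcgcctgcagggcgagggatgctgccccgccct
S100a6, chr3:90612644-90612893, plus strand: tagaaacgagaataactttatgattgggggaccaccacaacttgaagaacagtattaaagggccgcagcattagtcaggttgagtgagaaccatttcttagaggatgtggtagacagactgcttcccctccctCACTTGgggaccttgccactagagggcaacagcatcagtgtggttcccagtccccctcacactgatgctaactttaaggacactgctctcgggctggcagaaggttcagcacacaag
S100a4, chr3:90603520-90603769, plus strand: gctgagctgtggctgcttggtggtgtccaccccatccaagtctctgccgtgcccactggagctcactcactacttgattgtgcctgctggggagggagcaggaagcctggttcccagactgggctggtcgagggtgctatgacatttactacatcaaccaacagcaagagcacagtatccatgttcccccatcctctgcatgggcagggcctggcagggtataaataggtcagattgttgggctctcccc
S100a11, chr3:93520246-93520495, plus strand: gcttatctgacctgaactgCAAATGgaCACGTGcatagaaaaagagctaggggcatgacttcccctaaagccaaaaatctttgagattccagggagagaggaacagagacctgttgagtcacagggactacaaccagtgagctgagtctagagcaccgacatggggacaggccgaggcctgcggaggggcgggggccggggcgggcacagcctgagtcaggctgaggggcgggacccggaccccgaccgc
Lgals3 held CAGGTG at both of its matches, S100a6 held CACTTG, S100a11 held CAAATG and CACGTG, and S100a4 held no match. CANNTG reads the same on both strands. RefSeq promoters were matched for 8 of the 10 genes (Lgals1 and S100a10 had no entry), and 3 of the 8 held CANNTG in this window, beside 66.2% of all 32851 promoter entries of the same length. The form CACCTG, or CAGGTG on the other strand, was in 1 of the 8 and in 17.2% of all entries, and the form CAGCTG was in 0 of the 8 and in 4271 of the 32851 entries. Both forms are themselves CANNTG matches. A match describes letters in a window and not a bound site.

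The wider galectin family moved in both directions. Among 10 tested galectin and galectin-like genes, counting Lgals1 and Lgals3, 4 were higher in dKO, 1 was lower and 5 did not pass. Without Lgals1 and Lgals3, 2 of 8 tested were higher in dKO, beside 15.1% higher and 13.8% lower over all tested genes. The median log2 ratio of the family was 1.23, which includes genes of a few reads. Lgals9, which encodes the tandem-repeat galectin-9, a ligand of several lymphocyte receptors, was the gene that fell. Lgals9 had means of 5133 in dKO and 8454 in control, 1.65-fold lower in dKO, in the authors' deposited table (authors' adjusted p = 3.16e-08). Lgals8, another tandem-repeat galectin, had means of 1541 in dKO and 1404 in control in the authors' deposited table, short of the threshold (authors' adjusted p = 0.677). Lgalsl, a galectin-like gene listed as 1110067D22Rik, had means of 348 in dKO and 75.1 in control, 4.63-fold higher in dKO, in the authors' deposited table (authors' adjusted p = 5.03e-12). Its dKO mean had 2 solutions in whole reads, and with 1 dKO library left out the ratio ran from 2.60 to 6.76 over them. In 1 of the solutions a dKO library of Lgalsl stood at 28.5 normalised counts, below the control libraries at 62.5 to 99.8.

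Lgals7, a galectin best known from stratified epithelium, was low enough for its reads per library to be solved in both groups. Its normalised counts were 197, 80.9 and 176 in the dKO libraries (size factors 1.16, 1.08 and 1.04) and 11.7, 0 and 12.1 in the control libraries (size factors 1.02, 0.952 and 0.823). The groups did not overlap, but the share of all genes without overlap was not computed. The means of Lgals7 were 151 in dKO and 7.95 in control, 19.0-fold higher in dKO, in the authors' deposited table (authors' adjusted p = 6.49e-07), and with any 1 library left out the ratio was between 12.7-fold and 25.9-fold. Its control counts are few, 12, 0 and 10 reads.

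The S100 genes of chromosome 3 did not all rise. The reference annotation places 15 S100 genes on chromosome 3, and their means ran from listed at 0 to 3509. Only 5 of them had a mean of at least 100 in either group, and of these S100a13, S100a4, S100a6 and S100a10 rose while S100a11 did not pass. S100a13, which takes part in release of leaderless growth factors, had means of 841 in dKO and 331 in control, 2.54-fold higher in dKO, in the authors' deposited table (authors' adjusted p = 1.45e-11). The control mean of S100a13 had 4 solutions in whole reads, and with 1 control library left out the ratio ran from 1.72 to 7.002 over them. Between S100a4 and S100a6 lies S100a5, with means of 0.62 in dKO and 3.52 in control in the authors' deposited table. S100a3, the nearest gene on the other side of S100a4 with a mean above 10 in either group, had 12 to 32 reads in the dKO libraries and 1 to 5 reads in the control libraries. S100a3 missed the threshold in the authors' deposited table (authors' adjusted p = 0.164 by DESeq). Its groups did not overlap, but the share of all genes without overlap was not computed. For S100a8 and S100a9, the calprotectin genes of neutrophils and monocytes, the authors' deposited table has 0 in dKO and 0 in control. Over the S100 family as listed, with genes outside chromosome 3, 4 of 12 tested genes rose, 8 did not pass and 4 more were at 0 throughout. Of those that rose 3 are among the 10 genes, and without the set 1 of 8 tested rose, beside 15.1% over all tested genes. The median log2 ratio of the family was 1.92, which includes genes of a few reads.

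**Figure D3:**
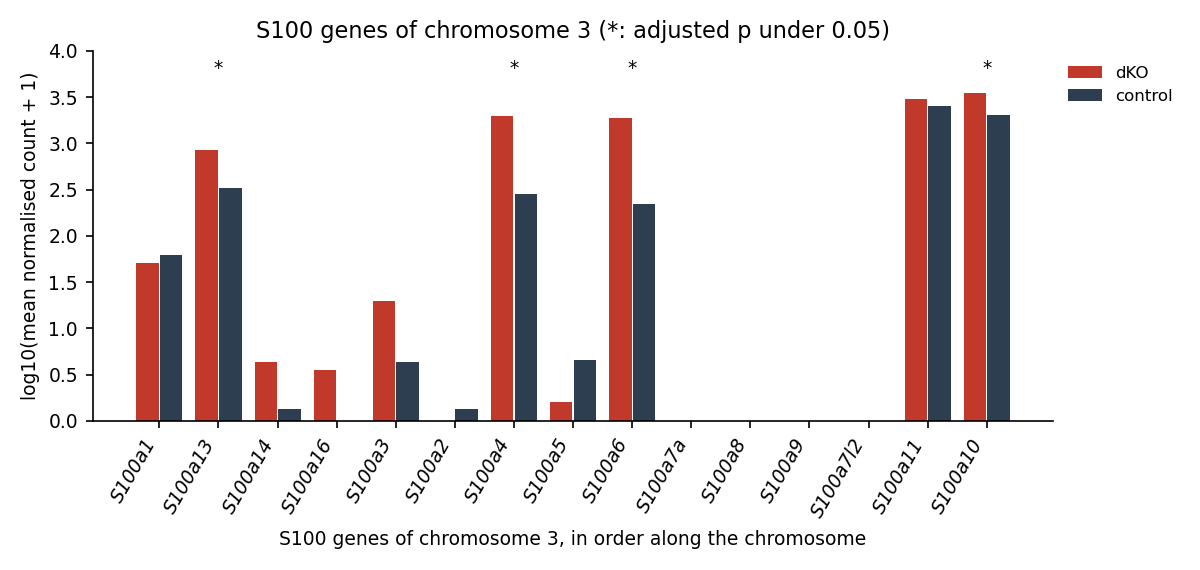
The 15 S100 genes of chromosome 3 in their order along the chromosome, with log10(mean normalised count + 1) in dKO (red, left bar) and control (dark, right bar). Asterisks mark genes with an authors' adjusted p under 0.05. The genes S100a4 and S100a6 have tall bars on either side of S100a5, which is near 0 in both groups, and S100a7a, S100a8, S100a9 and S100a7l2 are at 0.

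Among 9 tested annexins, counting Anxa1 and Anxa2, 5 were higher in dKO, Anxa9 was lower and 3 did not pass. Their median log2 ratio was 0.55. Without Anxa1 and Anxa2, 3 of 7 were higher in dKO, beside 15.1% higher and 13.8% lower over all tested genes. Anxa6, which links membranes to the actin cortex, had the largest ratio: means of 22117 in dKO and 7315 in control, 3.02-fold higher in dKO, in the authors' deposited table (authors' adjusted p = 1.04e-58). Anxa11, which tethers RNA granules to lysosomes, had means of 2385 in dKO and 1048 in control, 2.28-fold higher in dKO, in the authors' deposited table (authors' adjusted p = 4.91e-18). Anxa5, known for binding phosphatidylserine on dying cells, had means of 1285 in dKO and 877 in control, 1.46-fold higher in dKO, in the authors' deposited table (authors' adjusted p = 0.00142). The control mean of Anxa5 had 10 solutions in whole reads, and with 1 control library left out the ratio of dKO over control ran from 0.986 to 9.78 over them, so the direction could be lost. Anxa7, with means of 2152 in dKO and 1902 in control, and Anxa4, with 584 in dKO and 442 in control, missed the threshold in the authors' deposited table (authors' adjusted p = 0.342 and 0.121).

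The annexin that fell, Anxa9, had means of 39.0 in dKO and 135 in control, 3.46-fold lower in dKO, in the authors' deposited table (authors' adjusted p = 0.00521). Its dKO libraries were at 19.0, 32.6 and 65.5 normalised counts. Its control mean had 2 solutions in whole reads, with libraries at 79.1, 164 and 163 or at 324, 60.9 and 20.6. In the first the groups do not overlap and in the second they do, and without its highest control library the second leaves a control mean of 40.8, close to the dKO mean.

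**Figure D4:**
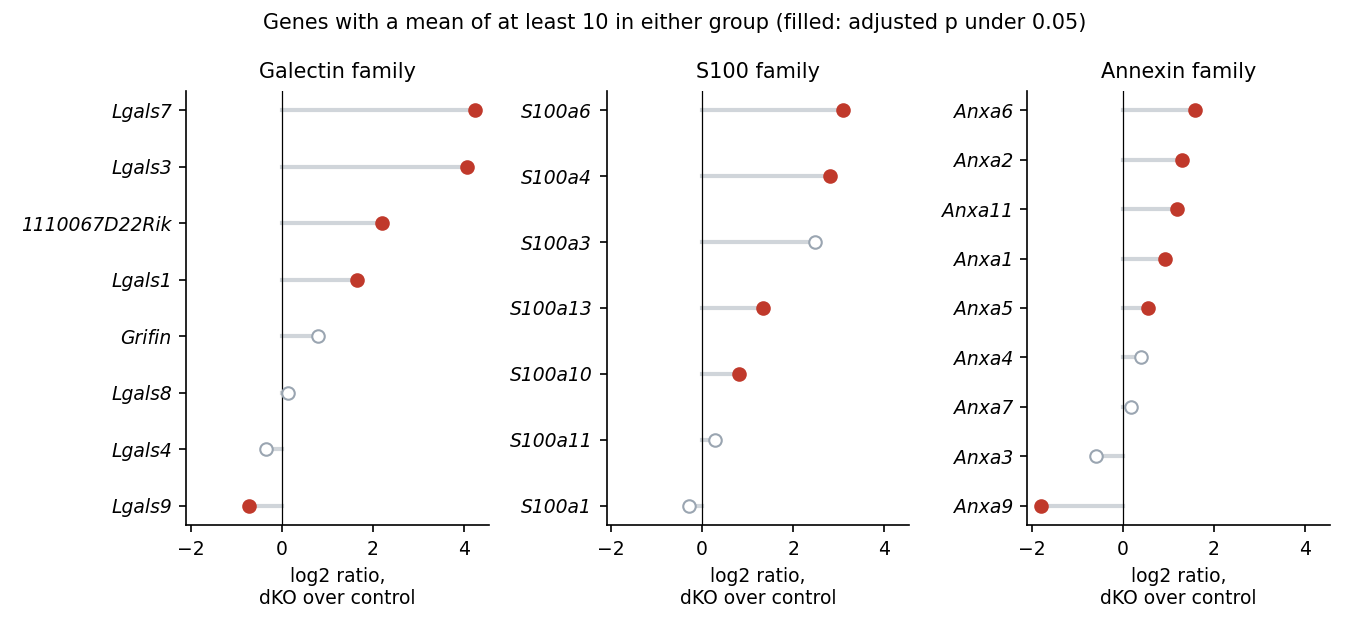
log2 ratio of the group means, dKO over control, for the galectin, S100 and annexin genes with a mean of at least 10 in either group, sorted within each family. Filled points passed the authors' adjusted p of 0.05 and open points did not. Each family holds genes to the right of 0, up to 4.25 for Lgals7, and Lgals9 (-0.72) and Anxa9 (-1.79) are the filled points left of 0.

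Among 27 tested binding partners, receptors and sugar-modifying enzymes of these proteins, 11 were higher in dKO, 2 were lower and 14 did not pass, and their median log2 ratio was 0.30. Over all tested genes 15.1% were called higher and 13.8% lower, and at an overall mean of at least 1000 these shares were 25.1% and 18.8%. St6gal1, which caps galactose with sialic acid and so masks sites that galectin-1 binds, had means of 8012 in dKO and 851 in control, 9.42-fold higher in dKO, in the authors' deposited table (authors' adjusted p = 3.18e-62). Gcnt1, which builds the branched O-glycans recognised by galectin-1, had means of 1865 in dKO and 778 in control, 2.40-fold higher in dKO, in the authors' deposited table (authors' adjusted p = 6.04e-06). Among galectin-1 counter-receptors, the authors' deposited table had Cd7 at 4673 in dKO and 1082 in control, 4.32-fold higher in dKO, and Ptprc (CD45) at 17415 in dKO and 12323 in control, 1.41-fold higher in dKO (authors' adjusted p = 2.29e-06 and 1.66e-06). Lgals3bp, a secreted galectin-3 ligand, had means of 10300.3 in dKO and 3574 in control, 2.88-fold higher in dKO, in the authors' deposited table (authors' adjusted p = 0.00228).

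Other partners gave a mixed picture. Myh9, the non-muscle myosin heavy chain bound by S100a4, had means of 17456 in dKO and 11910 in control in the authors' deposited table, 1.47-fold higher in dKO (authors' adjusted p = 1.13e-07). Pla2g4a, the cytosolic phospholipase A2 that annexins can inhibit, had means of 1427 in dKO and 2684 in control, 1.88-fold lower in dKO, in the authors' deposited table (authors' adjusted p = 1.35e-06). Cacybp, the partner of S100a6, had means of 4502 in dKO and 5513 in control, 1.22-fold lower in dKO, in the authors' deposited table (authors' adjusted p = 0.0194). The galectin ligands Itgb1, with means of 5764 in dKO and 6283 in control, and Cd44, with 2765 in dKO and 3220 in control, missed the threshold in the authors' deposited table (authors' adjusted p = 0.441 and 0.120). For Fpr1, Fpr2 and Fpr3, members of the formyl peptide receptor family through which annexin A1 acts, the authors' deposited table has 0 in dKO and 0 in control.

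Most genes of the actin cortex rose beside the 10 genes. Among 25 tested, 20 were higher in dKO, 2 were lower and 3 did not pass, and their median log2 ratio was 0.75. Most of these are abundant, and 25.1% of genes with an overall mean of at least 1000 were called higher. The rises were moderate, 4 of them at least 2-fold. The actin-sequestering Tmsb4x had means of 74600.2 in dKO and 26864 in control, 2.78-fold higher in dKO, and the calponin Cnn2 had 16611 in dKO and 7024 in control, 2.36-fold higher in dKO, in the authors' deposited table (authors' adjusted p = 4.49e-30 and 2.6e-35). Actb had means of 66021 in dKO and 33922 in control, 1.95-fold higher in dKO, in the authors' deposited table (authors' adjusted p = 2.65e-24). Msn (moesin) rose 1.89-fold, with means of 37049 in dKO and 19569 in control, while its paralogs Ezr, with 10189 in dKO and 11099 in control, and Rdx, with 5141 in dKO and 5872 in control, missed the threshold in the authors' deposited table. Actn1, an actin crosslinker of adhesions, had means of 222 in dKO and 928 in control, 4.18-fold lower in dKO, in the authors' deposited table (authors' adjusted p = 1.9e-24). Vcl (vinculin), the other gene that fell, was 1.27-fold lower in dKO in the authors' deposited table (authors' adjusted p = 0.0419).

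Among 17 tested intermediate filament and linker genes, Vim included, 5 were higher in dKO, 2 were lower and 10 did not pass, and their median log2 ratio was 0.66. These counts stand beside 15.1% higher and 13.8% lower over all tested genes, and beside 25.1% and 18.8% at an overall mean of at least 1000, so they are near the background. Besides Vim, Lmna (lamin A/C) had means of 2934 in dKO and 621 in control, 4.72-fold higher in dKO, in the authors' deposited table (authors' adjusted p = 1.16e-13). The cytolinker Plec, which anchors vimentin, had means of 10743 in dKO and 5320 in control, 2.02-fold higher in dKO, and the actin crosslinker Flna had 32584 in dKO and 14917 in control, 2.18-fold higher in dKO, in the authors' deposited table (authors' adjusted p = 2.86e-22 and 1.37e-31). Lmnb2, a B-type lamin gene, had means of 1813 in dKO and 2461 in control, 1.36-fold lower in dKO, in the authors' deposited table (authors' adjusted p = 0.00547). Lmnb1, with means of 8418 in dKO and 6439 in control, and Macf1, with 5240.3 in dKO and 5195 in control, missed the threshold in the authors' deposited table.

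Among 24 tested genes typical of effector lymphocytes, 18 were higher in dKO, 1 was lower and 5 did not pass, and their median log2 ratio was 1.58. The shares over all tested genes were 15.1% higher and 13.8% lower, and at an overall mean of at least 1000 they were 25.1% and 18.8%. This list shares genes with others: Lsp1 and Capg, both higher in dKO, are also counted in the actin cortex, and Cd44 and Itgb1 among the partners. The chemokine receptor genes Ccr2 and Cxcr6 had means of 9733 and 11082 in dKO, against 1249 and 1521 in control, in the authors' deposited table. The gene that fell, Crip1, which encodes a small LIM-domain protein, had means of 3874 in dKO and 7374 in control, 1.90-fold lower in dKO, in the authors' deposited table (authors' adjusted p = 5.26e-07). Emp3, a membrane protein gene, and Capg, an actin-capping protein gene, were 2.29-fold and 2.77-fold higher in dKO in the authors' deposited table (authors' adjusted p = 2.78e-13 and 7.37e-15). The integrin gene Itgb7 and the interleukin-18 receptor gene Il18r1 were 3.59-fold and 7.80-fold higher in dKO in the authors' deposited table (authors' adjusted p = 1.05e-35 and 3.55e-92).

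**Figure D5:**
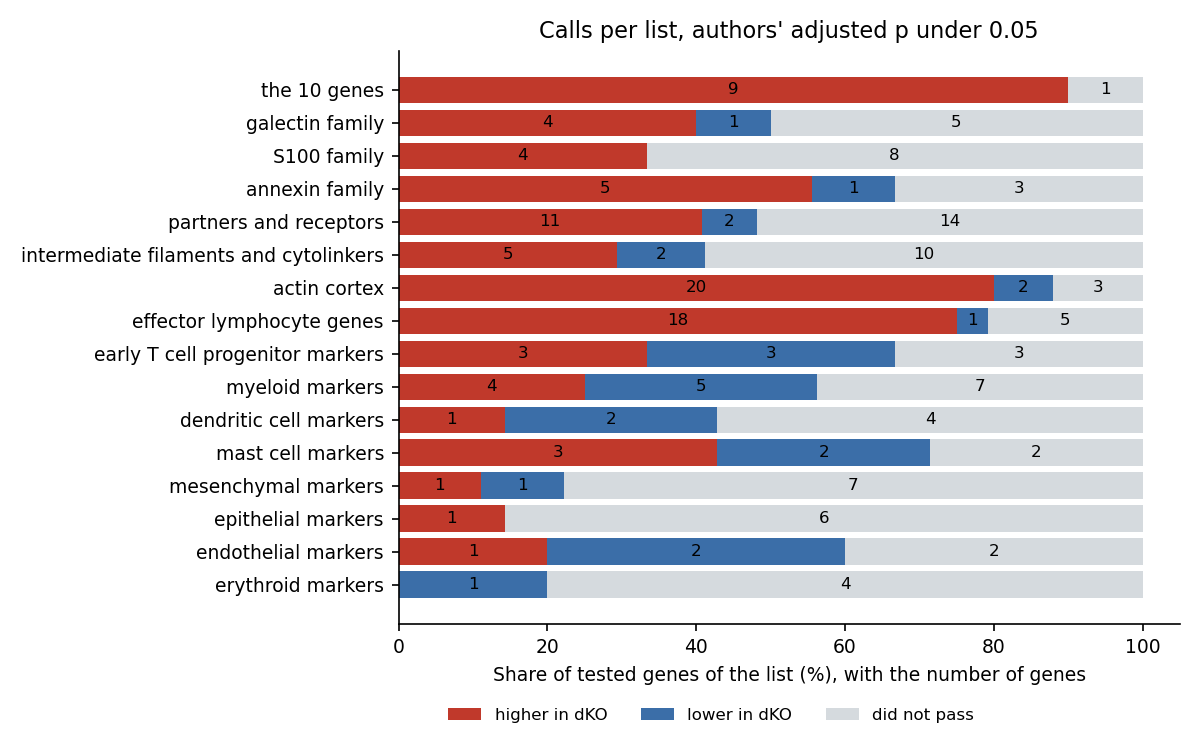
Share of the tested genes of each list that was higher in dKO (red), lower in dKO (blue) or did not pass (grey) at the authors' adjusted p under 0.05, with the number of genes in each part. The 10 genes (9 of 10), the actin cortex (20 of 25) and the effector lymphocyte genes (18 of 24) have the largest red parts. In the myeloid, dendritic cell, endothelial and erythroid marker lists the blue part is longer than the red.

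Genes of the gate and of other cells were read beside these results, since Lgals3, Vim, S100a4, S100a6, Anxa1 and Anxa2 are also abundant in myeloid and stromal cells. In bulk RNA, fewer cells of a type and less RNA per cell cannot be told apart. Of the genes for the gate's positive markers, Kit was at 19067 in dKO and 14094 in control and Cd44 at 2765 in dKO and 3220 in control in the authors' deposited table. The gate excludes CD25, and its gene Il2ra was at 8536 in dKO and 8417 in control in the authors' deposited table. Of the 9 progenitor markers 3 rose and 3 fell, beside 15.1% higher and 13.8% lower over all tested genes. Those that rose were Kit, Ptprc and Il7r, and those that fell were Notch1, Cd34 and Flt3. The means of Notch1, Cd34 and Flt3 in the authors' deposited table were 1829, 1770 and 327 in dKO and 10176, 4957 and 1080 in control.

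Of 16 tested myeloid markers 4 rose and 5 fell, beside 15.1% higher and 13.8% lower over all tested genes. Their means summed to 7131 in dKO and 11700.01 in control, with S100a8, S100a9 and Cd14 at 0 throughout. Mpo, the granule peroxidase of granulocyte progenitors, had means of 1457 in dKO and 7310.1 in control, while the macrophage genes Ctss and Emr1 were 6.64-fold and 5.21-fold higher in dKO in the authors' deposited table. Dendritic cell markers summed to 1157 in dKO and 1696 in control, with Siglech and Clec9a at 0. Flt3, also listed as a progenitor marker, made up 327 of this sum in dKO and 1080 in control. Mast cell markers summed to 4900.4 in dKO and 7658 in control, of which Cpa3 made up 2147 in dKO and 5824 in control. Of 7 tested dendritic cell markers 1 rose and 2 fell, and of 7 tested mast cell markers 3 rose and 2 fell. In the myeloid, dendritic cell and mast cell lists, Mpo, Flt3 and Cpa3 in turn carried the lower sum in dKO. Mesenchymal markers summed to 2334 in dKO and 9504 in control, of which Pdgfrb made up 2152 in dKO and 9430 in control, with Pdgfra at 0 in both groups. The other 9 mesenchymal markers, summed apart after the values were seen, came to 182 in dKO and 74.0 in control. Of these Col5a1 rose, with means of 118 in dKO and 51.8 in control in the authors' deposited table, while Col3a1 had 16.1 in dKO and was listed at 0 in control and did not pass. Endothelial markers summed to 2268 in dKO and 2971 in control with Cdh5 at 0, and of 5 tested 1 rose (Kdr) and 2 fell (Pecam1 and Esam). Erythroid markers summed to 122 in dKO and 1190.008 in control with both alpha globin genes at 0. Of 5 tested 0 rose and 1 fell. This was Hbb-b1, listed as Beta-s, with means of 12.3 in dKO and 1032 in control in the authors' deposited table. Epithelial markers, with Krt14 at 0, summed to 2110.1 in dKO and 1345 in control. Of 7 tested 1 rose, Cdh1, with means of 1420 in dKO and 734 in control in the authors' deposited table, and 0 fell. The part of these cells in the results for the 10 genes was not tested.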

How the data were processed

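RNA was measured in 6 libraries of sorted early T cell progenitors, 3 dKO and 3 control, grouped by their labels. Per the labels' protocols, total RNA from sorted cells was amplified with a low-input SMARTer kit, so reads are not independent molecules and counting limits cover counting error only. Per the submitters' processing notes, the tools were bcl2fastq (1.8.4), TopHat2 (2.0.14) and DESeq (version 2), with build mm9. The counting program and gene models were not given in the sources used here. The authors deposited 1 signal column per group, the mean of its libraries' normalised counts per the file headers. The ratio column of dKO mean over control mean, the p-values and the adjusted p-values are also the authors' own as deposited. The deposited log2 column was not used.

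The design assumed counts per library as one possibility. The table holds group means, so the authors' own DESeq test was used and no new test was made. Redoing the Benjamini-Hochberg adjustment gave the deposited adjusted p-values within 4.08e-07. log2 ratios were computed from the means. All 3719 dKO and 3582 control means up to 100 had 1 solution in whole reads, and means up to 1000 of the named families were also solved, some with several solutions. On data simulated from means up to 100, 100% of unique solutions were right. The same size factors were used to simulate and to solve, so error in them was not tested. Higher means, such as those of the 10 genes, were not simulated. Alternatives were another scaling, threshold, adjustment, filter (mean of at least 10) and pseudocount (1), and leaving out libraries.

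The members and lists were chosen with earlier results of these data known. The naming rule took the 10 genes, family genes with a mean of at least 100, and top marker genes. From each related list it took up to 4 called genes with the smallest p and 3 abundant ones that did not pass. It also gave S100a1, Lgals4, Grifin, Anxa3, Pdcd6, Dst, Tln1 and Prdm1, which did not pass and were not described. The top marker genes Tyrobp, Cma1, Epcam, Krt18, Klf1 and Alas2 were left out as well. Other genes, among them Cd7, Gcnt1, Lgals3bp, Cacybp, Msn, Emp3, Capg, Emr1, Ctss, Tpsb2, Xcr1, the low S100 genes and genes listed at 0, were named after their values were seen. Rows were matched through a synonym for Lgalsl, Plgrkt, Myl12a, Adgre1 and Hbb-b1. Promoters are from RefSeq (GRCm38.p6) and transcript lengths from GENCODE M21. The table's build is mm9, so only the promoter windows have coordinates. Python 3.11.15, NumPy 2.4.6 and Matplotlib 3.10.9 were used.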

Additional observations from a re-analysis of the deposited data

How the results depend on the processing

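Scaling both groups to the same total shifted the log2 ratios by -0.08. With this scaling, with the median ratio set to 0 or with a pseudocount added, each of the 10 genes stayed higher in dKO. These alternatives changed the ratios only and kept the deposited p-values, so they could not change the calls. Adjusting over genes with a mean of at least 10 left 9 called. Bonferroni adjustment and an adjusted p under 0.01 also left 9 called. When a change of at least 2-fold was required as well, 7 stayed called, without S100a10 (log2 ratio 0.81) and Anxa1 (0.94).

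Of 111 tested genes of the 7 related lists outside the set, 57 were called higher and 9 lower. Over all tested genes 15.1% were called higher and 13.8% lower. With the 2-fold requirement the counts outside the set were 32 and 2, and 6.86% of all tested genes were called at least 2-fold higher. The annexin family, counted with Anxa1 and Anxa2, then had 3 higher. Partners had 4 higher and 0 lower, and the actin cortex 4 higher and 1 lower. The galectin, filament and effector lists had 0 lower. Under Bonferroni adjustment 5 were called lower in all, with partners at 5 higher and 1 lower, filaments and actin cortex at 1 lower each and annexins at 0 lower. At an adjusted p under 0.01 partners and actin cortex had 1 lower each. Each of these changes follows from a stricter rule applied to the same p-values and ratios. No paired analysis was possible because the table holds 1 mean per group and no column per replicate, and DESeq2 or edgeR could not be run on it. Leaving out single libraries was possible only where whole reads could be solved. Over several solutions, an alternative chosen after seeing the data, leaving out 1 control library could turn the direction of Anxa5 and Anxa4. The log2 ratio ran from -0.021 to 3.29 for Anxa5 and from -0.176 to 3.63 for Anxa4, which did not pass with all libraries.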

Other observations

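Genes of mast cells and dendritic cells moved in both directions within their lists. In the authors' deposited table Tpsb2, a mast cell tryptase, had means of 217 in dKO and 19.1 in control, 11.4-fold higher in dKO (authors' adjusted p = 1.85e-10), and Hdc, which makes histamine, had 1772 in dKO and 892 in control, 1.99-fold higher in dKO (authors' adjusted p = 5.42e-06). Cpa3, the mast cell carboxypeptidase that early progenitors also express, had means of 2147 in dKO and 5824 in control, 2.71-fold lower in dKO, in the authors' deposited table (authors' adjusted p = 6.83e-37). Xcr1, the chemokine receptor of cross-presenting dendritic cells, had means of 369 in dKO and 41.7 in control, 8.83-fold higher in dKO, whereas Itgax had 85.0 in dKO and 285 in control, 3.35-fold lower in dKO, in the authors' deposited table (authors' adjusted p = 5.15e-21 and 2.96e-07). Clec9a, which the same dendritic cells express, had 0 in dKO and 0 in control in the authors' deposited table.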
